A study of Mus musculus with 47 samples.

Results

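H3K4me1 peaks that were present in both E1/E2-KO livers and in neither control liver were drawn from the deposited peak lists. A peak of the E1/E2-KO male list on an autosome was taken as new when it overlapped a peak of the E1/E2-KO female list by at least 1 bp and overlapped no peak of the control male or control female list. This held for 3311 of the 67161 autosomal peaks of the E1/E2-KO male list (4.93%). The new peaks were thus chosen by the H3K4me1 lists themselves, so their number and their absence from control liver describe the choice and are supported by no test. Their position, sequence, H3K27me3 and H3K27ac were not used in the choice.

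The study mapped H3K4me1, H3K27ac and H3K27me3 by ChIP-seq in whole liver, taken from mice aged 7 weeks, to ask how loss of the methyltransferases Ezh1 and Ezh2 changes liver chromatin in each sex. Control mice were floxed at Ezh2 (Ezh2 f/f) with no Cre and intact Ezh1, and E1/E2-KO mice were Ezh1-/-, Ezh2 f/f and carried the Alb-Cre transgene. Both groups shared the floxed Ezh2 alleles. The albumin promoter drives Cre in hepatocytes, so that Ezh1 was lost in every cell of the liver and Ezh2 in hepatocytes, while the other liver cells kept Ezh2. The labels list 47 samples of individual livers, with 4 for each combination of mark, sex and genotype, except that H3K4me1 in the E1/E2-KO female group has 3. The reads of a group were pooled before peaks were found, which left 1 list for each mark and group, 12 in all. No list has a replicate, and the read depth of the pools is unknown. No difference between groups could therefore be tested, and the 95% Wilson intervals given beside shares hold for counting error alone, as if each peak were independent of its neighbours. Values given over the 4 groups follow the order control male, control female, then knockout male and knockout female.

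H3K4me1, monomethylation of lysine 4 of histone H3, marks enhancers that are primed or in use and the flanks of promoters. H3K27ac marks the subset of these elements that is active. H3K27me3 is laid down by polycomb repressive complex 2, whose catalytic subunit is Ezh1 or Ezh2, and spreads in broad domains over silent genes. In liver it covers developmental genes, many of them with CpG-rich promoters, and genes whose expression differs between the sexes. At lysine 27 acetylation and trimethylation exclude each other on the same histone tail, whereas H3K4me1 can lie in the same domain as either.

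As examples, the sequences of 10 new peaks are printed below, 1 for each of the first 10 genes of the ranking by number of new peaks that had a suitable peak. Each peak lay inside a control male H3K27me3 region or overlapped an H3K27ac peak in both E1/E2-KO lists, and peaks that touch an annotated untranslated region were not used. Sequences are from the plus strand of NCBIM37, which is mm9, 5′ to 3′, and peaks over 300 bases are shown as their central 200. Capitals mark matches to the short factor motifs that are spelled out with the motif counts further on.
Gm20388, intron, chr8:125858277-125858557: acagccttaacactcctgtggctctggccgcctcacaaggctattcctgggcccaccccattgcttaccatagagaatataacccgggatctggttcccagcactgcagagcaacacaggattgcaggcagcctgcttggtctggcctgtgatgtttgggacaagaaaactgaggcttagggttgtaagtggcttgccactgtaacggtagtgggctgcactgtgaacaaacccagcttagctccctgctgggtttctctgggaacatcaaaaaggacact
Auts2, intron, chr5:132305049-132305296: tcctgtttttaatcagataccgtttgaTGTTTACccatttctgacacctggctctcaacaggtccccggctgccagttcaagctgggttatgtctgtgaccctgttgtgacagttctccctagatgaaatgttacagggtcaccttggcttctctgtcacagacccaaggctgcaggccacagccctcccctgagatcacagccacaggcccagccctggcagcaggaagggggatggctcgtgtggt
Fgfr2, intron, chr7:138013630-138013829: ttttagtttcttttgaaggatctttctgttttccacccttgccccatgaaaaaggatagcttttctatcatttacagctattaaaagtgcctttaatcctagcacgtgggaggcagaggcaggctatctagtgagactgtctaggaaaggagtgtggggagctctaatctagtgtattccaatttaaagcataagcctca
Fto, intron, chr8:93916617-93916848: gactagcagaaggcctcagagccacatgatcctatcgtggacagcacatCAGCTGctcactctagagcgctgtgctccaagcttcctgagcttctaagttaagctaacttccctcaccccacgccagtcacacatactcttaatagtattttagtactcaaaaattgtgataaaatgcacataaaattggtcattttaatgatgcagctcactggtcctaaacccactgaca
Nbea, intron, chr3:55986248-55986447: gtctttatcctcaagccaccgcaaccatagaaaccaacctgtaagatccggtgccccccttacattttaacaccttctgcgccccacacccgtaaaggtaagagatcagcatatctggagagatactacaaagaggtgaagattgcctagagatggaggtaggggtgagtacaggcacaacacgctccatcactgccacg
Pde4d, within 1 kb of a start, chr13:110692364-110692563: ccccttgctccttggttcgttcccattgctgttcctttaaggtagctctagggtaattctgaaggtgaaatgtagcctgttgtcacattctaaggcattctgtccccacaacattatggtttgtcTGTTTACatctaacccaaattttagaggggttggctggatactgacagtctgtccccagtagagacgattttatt
Igf2bp3, intron, chr6:49121561-49121784: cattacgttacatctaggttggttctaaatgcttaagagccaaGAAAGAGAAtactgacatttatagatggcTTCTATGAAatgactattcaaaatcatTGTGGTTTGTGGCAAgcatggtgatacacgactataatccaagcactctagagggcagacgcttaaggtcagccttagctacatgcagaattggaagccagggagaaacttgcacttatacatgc
Adamts9, within 1 kb of a start, chr6:92892800-92893055: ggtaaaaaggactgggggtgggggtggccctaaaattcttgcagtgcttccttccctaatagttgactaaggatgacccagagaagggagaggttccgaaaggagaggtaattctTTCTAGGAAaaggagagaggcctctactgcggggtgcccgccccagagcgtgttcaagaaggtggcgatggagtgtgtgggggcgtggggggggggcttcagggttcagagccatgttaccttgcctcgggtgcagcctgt
Rnf220, intron, chr4:116989886-116990181: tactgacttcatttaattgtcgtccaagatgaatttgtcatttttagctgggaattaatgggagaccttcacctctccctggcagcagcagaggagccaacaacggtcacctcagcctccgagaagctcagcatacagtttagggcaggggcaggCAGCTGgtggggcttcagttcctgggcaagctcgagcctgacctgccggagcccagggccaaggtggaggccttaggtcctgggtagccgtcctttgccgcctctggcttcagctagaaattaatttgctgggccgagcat
Srgap3, intron, chr6:112895114-112895381: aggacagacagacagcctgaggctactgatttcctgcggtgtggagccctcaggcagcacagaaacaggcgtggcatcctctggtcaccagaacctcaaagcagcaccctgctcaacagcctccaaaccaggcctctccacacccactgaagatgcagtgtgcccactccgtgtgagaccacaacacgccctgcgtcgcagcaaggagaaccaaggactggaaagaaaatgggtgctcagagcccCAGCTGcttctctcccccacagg
In the Igf2bp3 peak, 4 matches (IRF, STAT, RUNX and CEBP) fell within 224 bases, and the RUNX and CEBP matches share bases. The Gm20388, Fgfr2 and Nbea stretches held no match. The Gm20388 and Fgfr2 gene models span 4434882 and 3009069 bp, and their printed peaks also lay within 10 kb of Spire2 and Plekha1, respectively. Both labels therefore stand for a stretch of chromosome rather than for the named gene alone. The Adamts9, Rnf220, Srgap3 and Nbea stretches held 7, 8, 6 and 6 CpG dinucleotides, whereas the Fgfr2 stretch held 1. Of the 10 peaks, 9 were inside a control male H3K27me3 region and the exception, in Fto, overlapped an H3K27ac peak in all 4 groups. The rule for printing favoured such peaks, so the 10 do not represent all new peaks, of which 54.6% were inside such a region.

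The new peaks were narrow and often stood away from control peaks. Their median width was 383 bp (range 210 to 1763), compared with 437 bp for all E1/E2-KO male peaks, 622 bp for the 27829 peaks found in all 4 lists and 295 bp for the 11825 peaks new in the E1/E2-KO male list alone. The median distance to the nearest control H3K4me1 peak was 5647 bp, with quartiles of 816 and 15204 bp. At 899 new peaks a control peak lay within 1000 bp, at 1144 it was over 10000 bp away, and at 212 over 50000 bp. The E1/E2-KO female list covered a median of 65.7% of a new peak, and 3337 female peaks were involved. New peaks were scattered: the median distance between neighbouring new peaks was 300696 bp, 99 of 3311 lay within 1000 bp of another, and their share of the E1/E2-KO male peaks ran from 4.25% on chromosome 16 to 5.60% on chromosome 9.

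At the border of the choice, 106 new peaks lay within 50 bp of a control peak, and 167 of the 37924 peaks shared by the E1/E2-KO lists were left out although they shared at most 50 bp with control peaks. The peaks at chr10:20443020-20443255 and chr5:65015430-65015739 touched a control peak without overlapping it and were inside. The peaks at chr1:154375816-154376139 and chr3:35943205-35943514 shared 1 base with a control peak and were outside.

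Transcription start sites took a smaller share of the new peaks than of all E1/E2-KO male peaks. Of the new peaks, 635 (19.2%, 17.9 to 20.6%) lay within 1 kb of an annotated start, beside 24.3% of all E1/E2-KO male peaks and 30.0% of the peaks found in all 4 lists. Within 3 kb of a start the shares were 29.8% and 34.6%, and among peaks at least as wide as the median new peak 24.5% and 28.1% lay within 1 kb. Introns held 1292 new peaks (39.0%, 37.4 to 40.7%) beside 37.2%, exons 218 (6.58%) beside 6.71%, and intergenic sequence 1166 (35.2%, 33.6 to 36.9%) beside 31.8%. The centres of 548 new peaks (16.6%, 15.3 to 17.9%) were over 50 kb from any start, beside 14.9%. The median distance to a start was 10580 bp for the new peaks and 8897 bp for all E1/E2-KO male peaks. Most new peaks were thus distal, and their spread over exons was close to that of the whole list.

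More than 50% of the new peaks lay inside regions that carried H3K27me3 in control liver of either sex. In control male liver 1807 of 3311 (54.6%, 52.9 to 56.3%) overlapped an H3K27me3 region, beside 34.8% of all E1/E2-KO male peaks. In control female liver the share was 50.8% (49.1 to 52.5%) beside 30.4%. Peaks lost in the opposite direction, present in both control lists and in neither E1/E2-KO list, numbered 3987, and 20.4% of them (19.2 to 21.7%) were inside control male H3K27me3. The 11825 peaks new in the E1/E2-KO male list alone were between these, at 42.8% (41.9 to 43.7%), and the peaks found in all 4 lists were at 33.0%. The order was new in both, new in male alone, kept, then lost, in all 4 H3K27me3 lists.

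**Figure D1:**
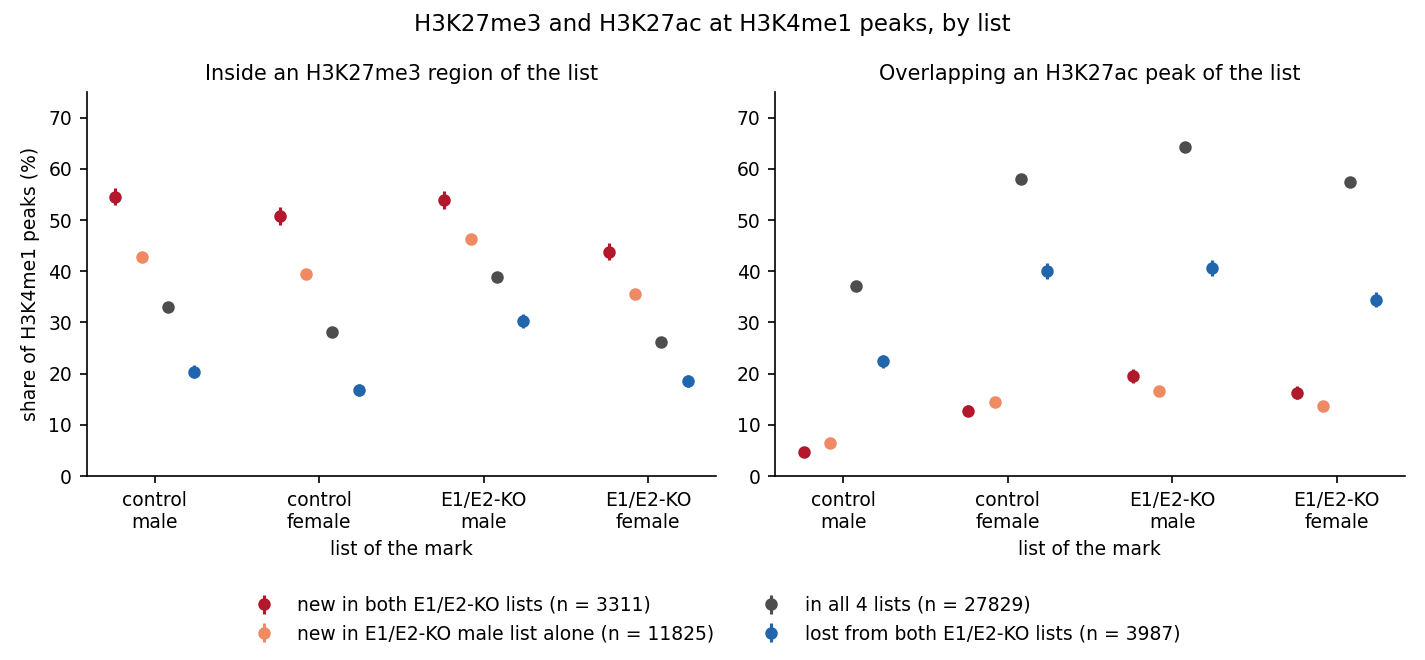
Share of H3K4me1 peaks (%, vertical axis) inside an H3K27me3 region (left) or overlapping an H3K27ac peak (right) of each of the 4 pooled lists (horizontal axis), for 4 classes of H3K4me1 peak. Points are shares and bars their 95% Wilson intervals, of counting error alone; the new peaks have the highest share inside H3K27me3 in every list (43.8 to 54.6%) and, with the peaks new in the male list alone, the lowest shares with H3K27ac.

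H3K27me3 regions were also listed over most of these positions in E1/E2-KO liver. In the E1/E2-KO male list 1785 new peaks (53.9%, 52.2 to 55.6%) lay inside a region, beside 40.3% of all E1/E2-KO male peaks, and in the E1/E2-KO female list 1450 (43.8%, 42.1 to 45.5%), beside 28.4%. All 4 lists held a region over 1231 new peaks (37.2%, 35.5 to 38.8%), beside 19.9%, and no list held one over 1174 (35.5%, 33.8 to 37.1%), beside 50.4%. Loss of H3K27me3 at the peak was less frequent than its presence in all 4 lists. Inside regions in both controls and in neither E1/E2-KO list were 4.71% of the new peaks (4.04 to 5.49%), beside a lower 3.38% of the whole list. The opposite pattern, a region in both E1/E2-KO lists and in neither control, was seen at 81 new peaks (2.45%, 1.97 to 3.03%), beside 3.97%. Of the 1807 new peaks with H3K27me3 in control male liver, 293 (16.2%) had none in the knockout male list, beside 21.6% of all such peaks. In female liver 394 of 1683 (23.4%) left H3K27me3, beside 28.7%.

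A listed region shows that H3K27me3 stood above the surrounding signal in the pool and not how much of it there was, so a lower level within a region that stayed listed would not be seen here. H3K27me3 regions covered 765, 630, 750 and 633 Mb of the autosomes over the 4 groups. Of all 21418 protein-coding autosomal genes, 6676 were at least 50% covered in control male liver. The number in the other groups is not given here, so counts of marker genes cannot be set against it. Of 12 hepatocyte genes, 2, 2, 9 and 7 were at least 50% covered over the 4 groups. Alb was not among them, at 0%, 0%, 0% and 2.73%. Of 12 endothelial genes it was 10, 9, 5 and 5. The counts were 8, 9, 8 and 7 of 13 stellate cell and matrix genes and 7, 5, 6 and 4 of 11 Kupffer cell genes. Of 11 lymphocyte genes they were 8, 8, 9 and 8, and of 10 bile duct genes 8, 7, 9 and 8. Without the share of all genes in each list, these counts show no change particular to a cell type. All 12 hepatocyte genes had an H3K27ac peak in every list, as liver should. The H3K27ac lists differed in length, with 28862, 48858, 55055 and 50426 autosomal peaks over the 4 groups. The share of all genes with H3K27ac in each list is not given here, so the counts that follow have no comparison. Over the same groups H3K27ac was listed at 8, 11, 12 and 12 of the endothelial genes, at 3, 4, 7 and 8 of the stellate cell and matrix genes, at 3, 4, 5 and 6 of the Kupffer cell genes, at 4, 6, 4 and 5 of the lymphocyte genes, and at 3, 4, 4 and 3 of the bile duct genes. In whole liver a change in the number of cells of a type cannot be told apart from a change within cells, and the part of other cell types in the new peaks was not tested.

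Around the new peaks the share of positions inside H3K27me3 was highest at the peak and fell with distance. For the control male list it was 54.5% at the peak centre, 44.9% at 50 kb to the left and 41.7% at 50 kb to the right. For the control female list it was 50.6% at the centre and 39.2% and 36.0% at the same distances. Over all E1/E2-KO male peaks the control male list gave 34.4% at the centre and 36.5% and 36.4% at these distances, with no rise towards the peak. The E1/E2-KO lists also rose towards the new peaks, to 53.7% in male and 43.5% in female liver, from 45.9% and 36.2% at 50 kb to the left.

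**Figure D2:**
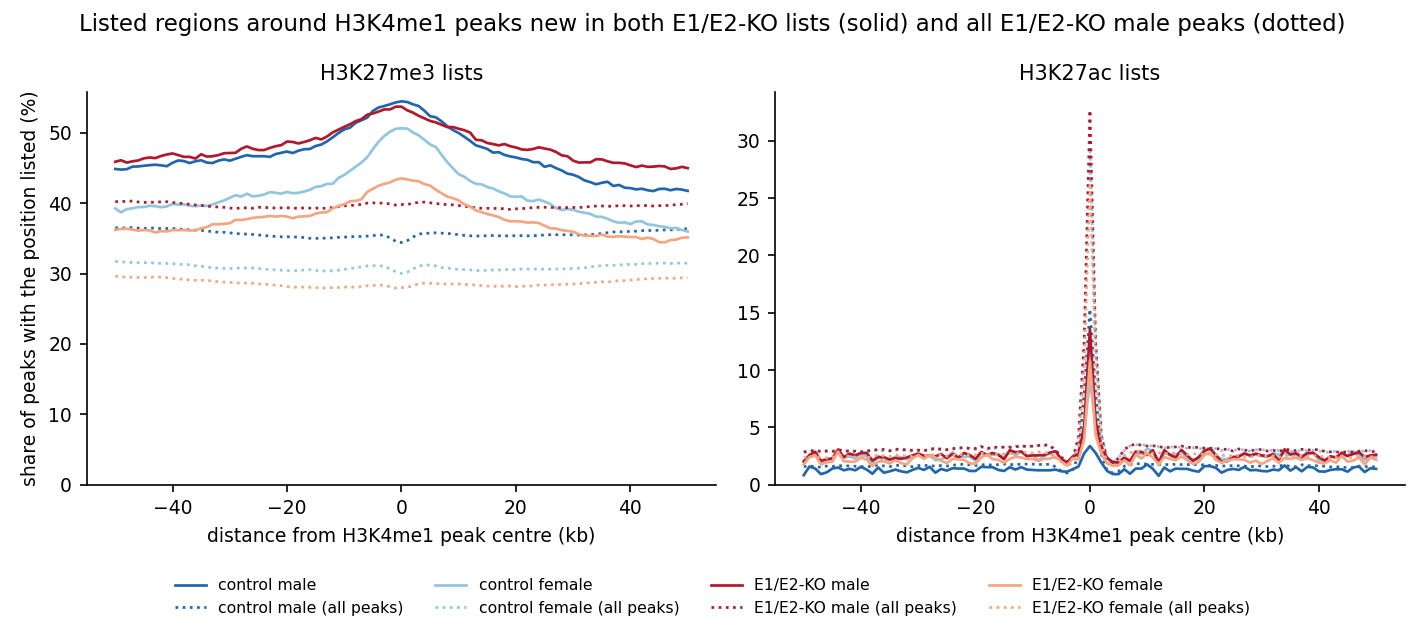
Share of H3K4me1 peaks (%, vertical axis) for which the position at a given distance from the peak centre (kb, horizontal axis, in 1 kb steps) is inside an H3K27me3 region (left) or an H3K27ac peak (right), for each of the 4 pooled lists. Solid lines are the 3311 new peaks and dotted lines all 67161 E1/E2-KO male peaks; H3K27me3 rises towards the new peaks (54.5% at the centre in control male) and H3K27ac is lower at their centre (13.6% in E1/E2-KO male) than over all peaks (32.7%).

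Few of the new H3K4me1 peaks carried H3K27ac. An H3K27ac peak was found at 646 new peaks (19.5%, 18.2 to 20.9%) in E1/E2-KO male liver, beside 46.2% of all E1/E2-KO male H3K4me1 peaks, and at 537 (16.2%, 15.0 to 17.5%) in E1/E2-KO female liver, beside 40.3%. The peaks new in the male list alone had lower shares still, 16.7% and 13.8%, so that the low share was not particular to peaks new in both. When an E1/E2-KO male H3K27ac peak within 1 kb was enough, the share was 31.4% for the new peaks, 30.8% for those new in the male list alone and 60.1% for the whole list. In control liver the same positions had H3K27ac at 159 (4.80%, 4.12 to 5.58%) in the male list, beside 24.6%, and at 423 (12.8%, 11.7 to 14.0%) in the female list, beside 41.1%. The male H3K27ac lists differed in length, with 28862 autosomal peaks in control and 55055 in E1/E2-KO, and the female lists less so, with 48858 and 50426, which covered 30.7 and 26.0 Mb. In female liver the share of new peaks with H3K27ac was higher in E1/E2-KO (16.2%) than in control (12.8%), whereas over all E1/E2-KO male peaks it was 40.3% and 41.1%. The part of list length and of covered sequence in these differences was not tested.

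Both E1/E2-KO lists had H3K27ac at 339 new peaks (10.2%, 9.25 to 11.3%), beside 34.4%, and 2359 new peaks (71.2%, 69.7 to 72.8%) had H3K27ac in no list, beside 43.2%. H3K27ac that appeared in both E1/E2-KO lists and in neither control list was found at 120 new peaks (3.62%, 3.04 to 4.32%), beside 4.11%, so that this share was close to that of the whole list. An E1/E2-KO male H3K27ac peak that overlapped no control H3K27ac peak anywhere was found at 337 new peaks (10.2%, 9.19 to 11.3%), beside 10.4%, such a female peak at 267 (8.06%, 7.18 to 9.04%), beside 7.88%, and both at 109 (3.29%, 2.74 to 3.96%), beside 3.99%. Counted over all peaks, the new peaks thus held no larger share of newly acetylated sites than the whole list in the male list, and a near equal share in the female list. Among peaks with E1/E2-KO male H3K27ac, such a male peak was found at 337 of 646 new peaks, beside 7012 of 31013 in the whole list. The new peaks were chosen for lacking control H3K4me1, which often coincides with H3K27ac, so this share is not independent of the choice. Peaks found in all 4 H3K4me1 lists had H3K27ac in E1/E2-KO male liver at 64.2%, and lost peaks at 40.6%.

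H3K27ac was less frequent at new peaks under H3K27me3 than outside it. Of the new peaks inside H3K27me3 in all 4 lists 142 of 1231 (11.5%, 9.87 to 13.4%) had E1/E2-KO male H3K27ac, compared with 286 of 1174 (24.4%, 22.0 to 26.9%) where no list had H3K27me3. Where H3K27me3 was in both controls and in neither E1/E2-KO list the share was 22.4% (16.6 to 29.6%). The same 3 classes over all E1/E2-KO male peaks gave 31.7%, 48.9% and 43.7%, in the same order. The new peaks were lower than the whole list in each class. H3K27ac in both E1/E2-KO lists and neither control list was found at 26 of 1231 (2.11%, 1.45 to 3.08%), 52 of 1174 (4.43%, 3.39 to 5.76%) and 6.41% (3.52 to 11.4%) of the new peaks in these classes, beside 5.49%, 3.05% and 7.39%. It was thus less frequent among the new peaks than over the whole list where H3K27me3 was listed throughout, and more frequent where none was.

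A change in both marks, with H3K27me3 in both controls and neither E1/E2-KO list and H3K27ac in both E1/E2-KO lists and neither control, was found at 10 new peaks (0.302%, 0.164 to 0.555%), beside 0.25% of all E1/E2-KO male peaks, which gives no excess at this count. These 10 are named although they were chosen after their values were seen. They lay in introns of Mecom (chr3:30152983-30153478), Pbx3 (chr2:34135017-34135790), Fyn (chr10:39191921-39192352) and Agpat4 (chr17:12401240-12401477), within 1 kb of a start near Ccdc8 (chr7:17579054-17579539), within 10 kb of Cyp3a16 (chr5:146192275-146192568) and of Hmha1 and Polr2e (chr10:79495477-79496059), and at 3 places with no protein-coding gene within 10 kb. Mecom and Pbx3 encode transcription factors, Fyn a Src family kinase, Agpat4 an acyltransferase of phospholipid synthesis and Cyp3a16 a female-biased cytochrome P450. The Cyp3a16 peak lay 230 bp from a control H3K4me1 peak, whereas the Fyn and Agpat4 peaks were 15988 and 37632 bp from one.

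By position, new peaks at transcription starts were the most often inside H3K27me3. Of the 635 at starts 470 (74.0%) were inside a control male region, beside 42.9% of the 16334 peaks of the whole list at starts. In intergenic sequence 64.2% of new peaks were inside, beside 44.5%, in exons 62.8% beside 35.4%, and in introns 34.9% beside 21.2%. The excess over the whole list was therefore present in each of the 4 classes of position. H3K27ac in E1/E2-KO male liver showed no such spread, with 18.9% of new peaks at starts, 17.9% in exons, 19.3% in introns and 20.3% in intergenic sequence, whereas over the whole list starts were highest, at 56.7%. In E1/E2-KO female liver 66.3% of the new peaks at starts were inside a region, compared with 73.1% in control female liver. The whole list at starts had 37.6% and 40.7% in the same lists. In male liver the new peaks at starts were at 73.4% in E1/E2-KO and 74.0% in control.

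Wider new peaks were more often at starts and inside H3K27me3. Among the widest (477 to 1763 bp, n = 1098) 69.5% were inside control male regions and 29.3% at a start, compared with 42.2% and 13.5% of the narrowest (210 to 312 bp, n = 1106). The whole list had 29.7% of its widest and 18.1% of its narrowest peaks at a start, so that the lower share of starts among new peaks was not seen in the widest class. All E1/E2-KO male peaks of the same width classes were at 38.8% and 31.2% inside control male regions. H3K27ac in E1/E2-KO male liver differed less by width among the new peaks, with 244 of the 1098 widest (22.2%) and 199 of the 1106 narrowest, whereas the whole list had 59.1% and 30.0%.

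The new peaks at starts inside H3K27me3 were rich in CpG. In windows of 500 bases about the peak centre their median CpG content was 5.0 per 100 bases (quartiles 3.0 and 7.6) and their median GC content 60.1%. At least 3 CpG per 100 bases were found in 366 of these 470 windows (77.9%). New peaks at starts outside control male H3K27me3 had a median of 1.4 CpG per 100 bases, and 23 of 165 (13.9%) reached 3. The whole list behaved alike, with medians of 4.8 and 1.6 for the same classes, and 71.0% and 17.8% of windows at 3 or more. Without regard to H3K27me3, the 635 new peaks at starts had a median of 3.8 CpG per 100 bases and 61.3% of windows at 3 or more, compared with 2.2 and 40.6% for all peaks at starts. New peaks at starts were thus richer in CpG than the whole list, and near it within each H3K27me3 class. Away from starts the median was 1.2 in both the new peaks and the whole list, while 343 of 2676 new peaks (12.8%) reached 3, beside 7.61% of the whole list.

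Across all 3311 new peaks the median CpG content was 1.4 per 100 bases and GC content 49.0%, compared with 1.2 and 48.2% in all E1/E2-KO male peaks and 1.0 and 45.6% in the lost peaks. New peaks inside H3K27me3 in all 4 lists had a median of 3.0 CpG per 100 bases, and 616 of 1231 reached 3. New peaks inside no H3K27me3 region had a median of 1.0, and 25 of 1174 (2.13%) reached 3. Those that left H3K27me3 in both sexes were between, with a median of 1.4 and 14.7% at 3 or more.

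**Figure D3:**
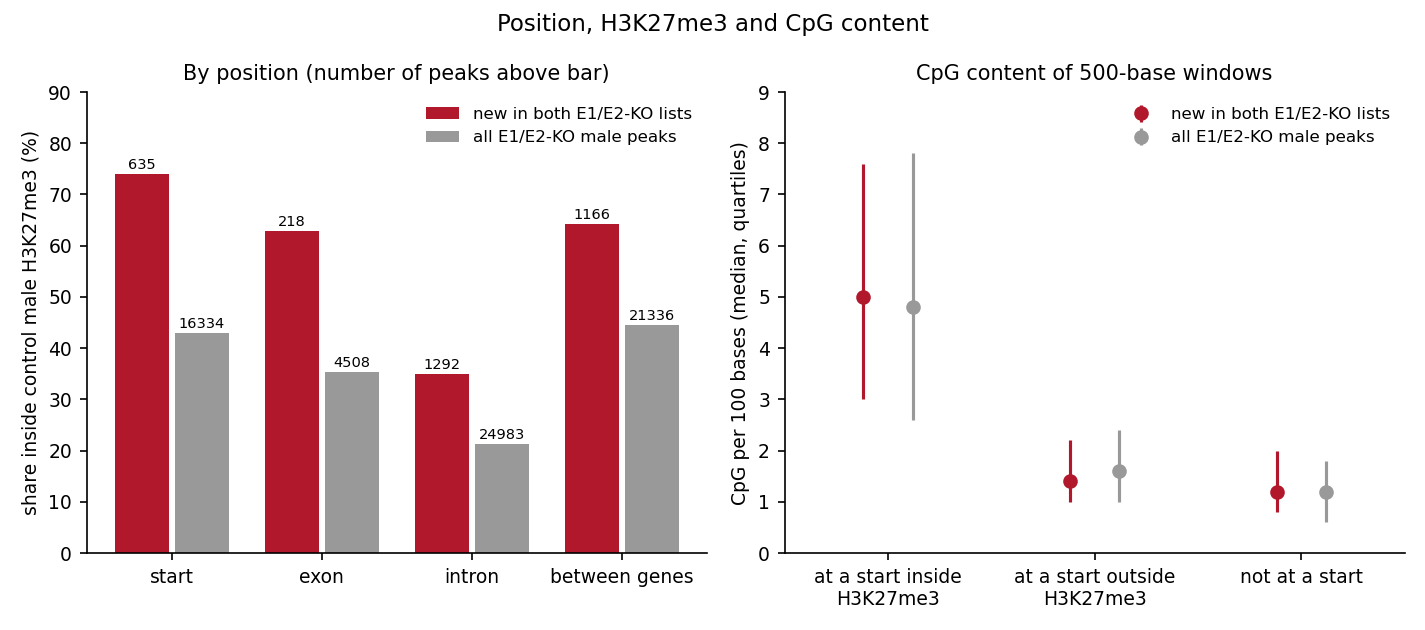
Left: share of H3K4me1 peaks inside a control male H3K27me3 region (%, vertical axis) by position to genes, for new peaks and for all E1/E2-KO male peaks, with the number of peaks above each bar. Right: CpG dinucleotides per 100 bases (vertical axis; points are medians, bars reach from the first to the third quartile) in 500-base windows; new peaks at starts are inside H3K27me3 at 74.0%, and the windows of starts inside H3K27me3 hold a median of 5.0 CpG, near the 4.8 of the whole list.

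Short motifs were counted in the same windows, on both strands. Matches of different motifs may share bases, and the whole list of E1/E2-KO male peaks served as comparison. AP-1 letters (TGANTCA) were in 15.4% of new peaks (14.2 to 16.6%) and 14.2% of the whole list. FOX letters (TGTTTAC), of the forkhead factors that open liver enhancers, were in 8.97% (8.04 to 9.99%) and 8.49%. CEBP letters (TTGCNNCAA) were in 4.71% (4.04 to 5.49%) and 4.49%, and GATA letters (AGATAAG) in 7.76% (6.90 to 8.72%) and 6.97%. STAT letters (TTCNNNGAA) were in 14.4% and 14.8%, and IRF letters (GAAANNGAA) in 14.9% of each. TEAD letters (ACATTCC) were in 7.10% and 7.34%. RUNX letters (TGTGGTT) were in 9.03% and 9.69%. SOX letters (ACAATGG) were in 6.13% and 6.07%. ETS letters (CCGGAAGT) were in 0.604% and 0.733%. The E-box searched (CAGCTG) was in 28.5% and 28.3%. The whole-list share lay inside the interval of the new peaks for 10 of the 11 motifs, the exception being AP-1 by a narrow margin. For each motif the shares differed by less than 1.5 percentage points.

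Within the new peaks motif content differed between those inside and outside H3K27me3. AP-1 letters were in 18.3% (16.2 to 20.6%) of new peaks inside no H3K27me3 region and 10.9% (9.27 to 12.7%) of those inside one in all 4 lists. STAT letters were in 17.1% and 11.1%, and GATA letters in 9.20% and 5.69%, in the same order. The E-box was at 23.2% and 31.8%. The median GC content of these classes was 45.8% and 54.2%, and the part of base composition in the differences was not tested.

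**Figure D4:**
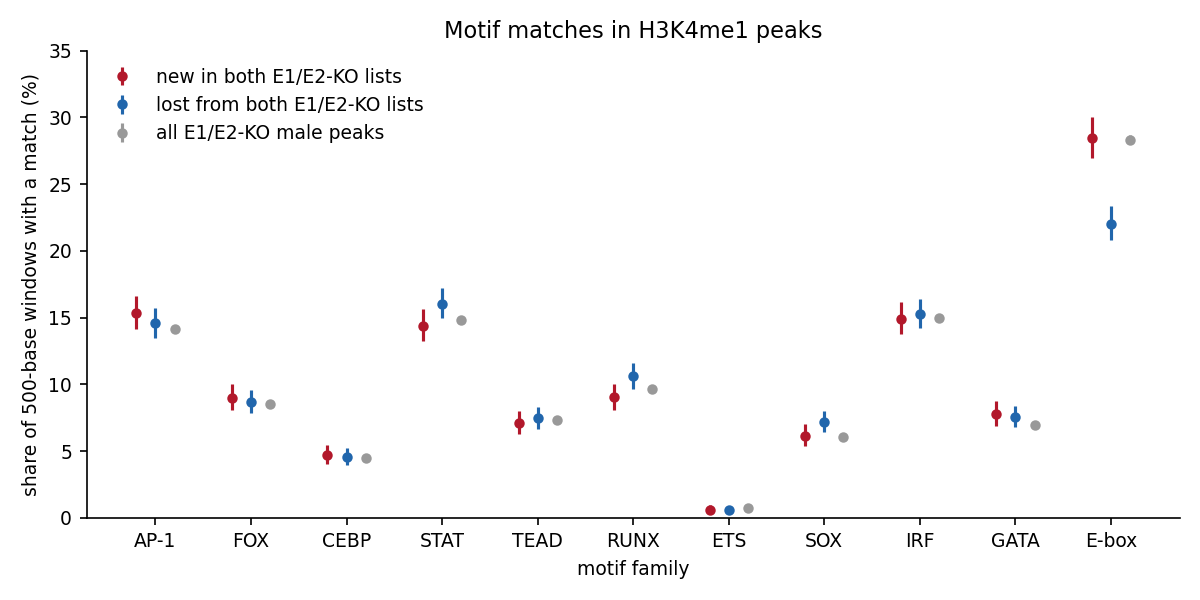
Share of 500-base windows about H3K4me1 peak centres that hold a motif match on either strand (%, vertical axis) for 11 motif families (horizontal axis), in peaks new in both E1/E2-KO lists, peaks lost from both and all E1/E2-KO male peaks. Points are shares and bars 95% Wilson intervals; new peaks and the whole list lie close together for every family (E-box 28.5% and 28.3%), and lost peaks are lower for the E-box (22.0%).

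New peaks were thinly spread over genes. Within a gene span extended by 10 kb on each side, 2588 of 21418 protein-coding autosomal genes (12.1%) had at least 1 new peak, and 64 genes (0.299%) had 3 or more. Of these, 38 had 3, 18 had 4 and 8 had 5 or more. The count of 64 rested on how peaks and genes were taken: it was 14 for the widest 50% of the new peaks, 37 when the female list had to cover at least 50% of a peak, 38 after peaks within 1 kb were merged, and 42 with no control peak within 1 kb. It was 86 with peaks taken from the E1/E2-KO female list, 104 by nearest start and 195 with spans extended by 50 kb. The 64 genes were long, with a median span of 338652 bp compared with 15535 bp over all protein-coding genes, and 57 of the 64 spanned at least 100 kb. Lost peaks reached 3 or more at 148 genes, 9 of which also had 3 or more new peaks, and 28 of the 64 genes had no lost peak. Control male H3K27me3 regions covered at least 50% of the span of 26 of the 64 genes and of 6676 of the 21418 genes.

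Several of the genes with most new peaks stood in H3K27me3 in control liver. The list was headed by Gm20388 (14 new peaks), a gene model of 4434882 bp on chromosome 8 that runs across many neighbouring genes, so that its count stands for a stretch of chromosome. Fgfr2, which encodes a fibroblast growth factor receptor (6 new peaks), likewise had a model of 3009069 bp in this annotation, and each of its new peaks lay within 10 kb of another gene as well, such as Plekha1 or Hmx3. Auts2, a regulator of transcription in the developing brain, had 6 new peaks, all 6 inside control male H3K27me3 and none with H3K27ac in any list. H3K4me1 peaks within 10 kb of Auts2 numbered 16, 20, 26 and 31 over the 4 groups, and H3K27me3 covered 59.4%, 46.4%, 46.6% and 24.6% of its span. Such H3K4me1 counts, here and below, include the new peaks by which genes were ranked, so a higher count in E1/E2-KO restates the choice.

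At Igf2bp3, 3 of the 4 new peaks stood in control male H3K27me3 that was no longer listed in E1/E2-KO liver. Igf2bp3 encodes an RNA-binding protein of fetal tissues and tumours that is silent in normal adult liver. H3K27me3 covered 68.6%, 44.8%, 14.9% and 9.68% of its span over the 4 groups. It had 4 new peaks, all intronic, at chr6:49060822-49061087, chr6:49061195-49061685, chr6:49121561-49121784 and chr6:49136723-49137232. The first 3 were inside control male and outside both E1/E2-KO H3K27me3 lists, and the last was inside none. The third was outside control female H3K27me3 as well. The last overlapped H3K27ac in E1/E2-KO male liver. H3K27ac peaks within 10 kb of the gene numbered 1, 6, 12 and 13, from lists of 28862, 48858, 55055 and 50426 autosomal peaks. H3K4me1 peaks numbered 16, 12, 17 and 12. The number of H3K4me1 peaks was therefore close in the genotypes, and 2 peaks were lost from both E1/E2-KO lists.

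H3K27me3 regions covered most of the span of Adamts9, Rnf220 and Srgap3 in every list. Adamts9, a secreted metalloprotease of the extracellular matrix, was covered to 99.5%, 97.0%, 77.3% and 71.7% over the 4 groups. H3K4me1 peaks at Adamts9 numbered 2, 0, 6 and 4 and H3K27ac peaks 0, 1, 3 and 3 in the same order. Its 4 new peaks were all inside control male H3K27me3, 3 of them inside H3K27me3 in all 4 lists, and 2 overlapped E1/E2-KO male H3K27ac. Rnf220, which encodes a ubiquitin ligase, and Srgap3, a GTPase-activating protein of Slit and Robo signalling, each had 4 new peaks inside control male H3K27me3, 3 of them in all 4 lists, and none with H3K27ac in E1/E2-KO male liver. Regions covered 92.8%, 94.4%, 91.0% and 84.2% of Rnf220 and 95.6%, 96.9%, 96.2% and 59.4% of Srgap3 over the 4 groups. None of these 3 genes had a lost peak, and neither had Nbea, Ppm1h or Fmnl2 of the same ranking. Lost peaks numbered 25 at Gm20388, 6 at Fgfr2, 3 each at Nrp2 and Pde4d and 2 each at Fto, Dock4, Tom1l2, St7 and Prkce. Auts2, Rora and Zbtb7c had 1 each.

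Another group of genes had new peaks with no H3K27me3 in any list. Fto, which encodes an RNA demethylase, had 5 new peaks, all inside no H3K27me3 region, 4 of which overlapped H3K27ac in E1/E2-KO male liver. Dock4, an activator of Rac signalling, had 5, Tom1l2, of endosomal sorting, 4, and St7 4, with no H3K27me3 over any of these 3 genes and E1/E2-KO male H3K27ac at 1, 2 and 1 of their new peaks. Prkce, which encodes protein kinase C epsilon, had 4 new peaks outside H3K27me3, with no H3K27ac in E1/E2-KO liver. Ppm1h encodes a protein phosphatase, and its 4 new peaks were inside no region. Regions covered 12.2%, 6.66%, 1.12% and 0% of its span over the 4 groups. Of the 4 new peaks of Fmnl2, a formin that builds actin filaments, 2 were inside control male and outside E1/E2-KO H3K27me3. H3K4me1 peaks within 10 kb numbered 4, 4, 12 and 9 at Ppm1h and 7, 7, 12 and 12 at Fmnl2. At Dock4 they numbered 29, 22, 27 and 20, and at Prkce 55, 39, 45 and 36. Each count includes the new peaks by which the gene was ranked.

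Among the others, Nbea, a scaffold of membrane traffic, had 5 new peaks, 2 of them inside control male H3K27me3. Its H3K4me1 peaks, the new ones included, numbered 7, 7, 14 and 13 over the 4 groups. Pde4d, a cyclic AMP phosphodiesterase, had 5 new peaks, 3 inside control male H3K27me3 and 3 with E1/E2-KO male H3K27ac. Rora, which encodes a nuclear receptor of the liver clock and lipid metabolism, had 5, none of them inside control H3K27me3. In E1/E2-KO male liver 4 were inside H3K27me3, which covered 43.7% of the gene beside 18.5% in control male liver. The female lists ran the other way, at 20.5% in control and 8.88% in E1/E2-KO, with none of the 5 inside. H3K4me1 peaks within 10 kb numbered 63, 56, 62 and 55 at Pde4d and 61, 43, 64 and 44 at Rora over the 4 groups. The 4 new peaks of Nrp2, a semaphorin and VEGF co-receptor, included 2 in exons, and H3K27me3 covered 48.0%, 37.2%, 83.4% and 36.2% of the gene over the 4 groups. Zbtb7c, a zinc finger factor, had 4, 2 of them inside control male H3K27me3. Over the 20 genes with most new peaks, which are long, 82 of 99 new peaks were intronic, beside 39.0% of all new peaks. Of the 99, 48 were inside control male H3K27me3, beside 54.6%, 41 inside no H3K27me3 region, beside 35.5%, and 26 overlapped E1/E2-KO male H3K27ac, beside 19.5%.

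**Figure D5:**
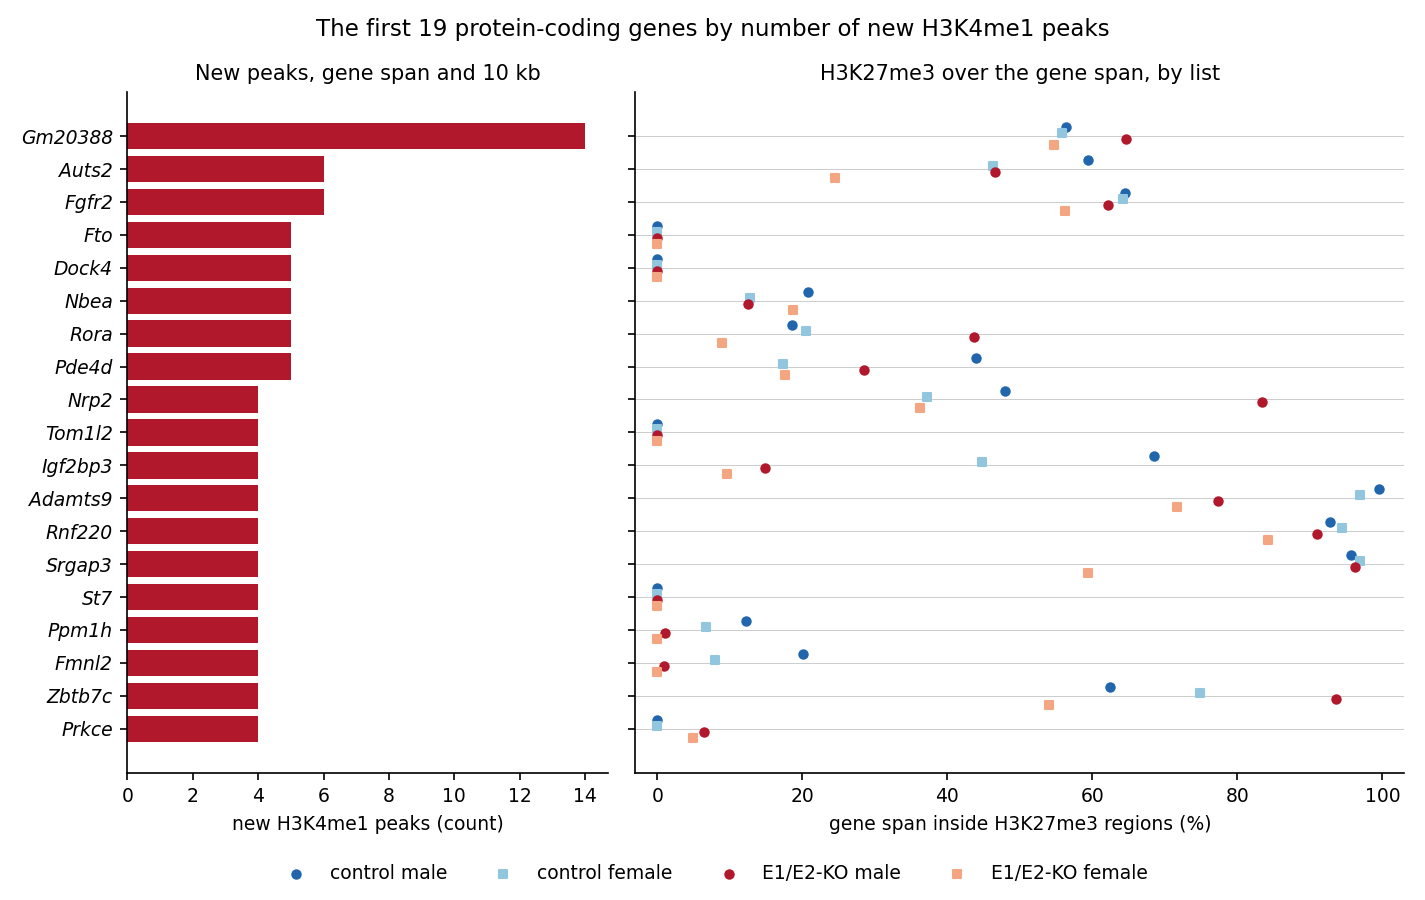
Left: number of new H3K4me1 peaks within 10 kb of the first 19 protein-coding genes of the ranking by number of new peaks (horizontal axis, count; ties ordered by length). Right: share of the gene span inside H3K27me3 regions in each of the 4 pooled lists (horizontal axis, %); coverage of Igf2bp3 is 68.6% in the control male list and 14.9% in the knockout male list, Adamts9, Rnf220 and Srgap3 are over 50% in every list, and Fto, Dock4, Tom1l2 and St7 are at 0 in all 4.

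Per 100 kb of extended span the 10 densest genes with 3 or more new peaks spanned 4554 to 129734 bp, below the median of the 64. 5730409E04Rik and A230065H16Rik, with 12.2 and 11.9 new peaks per 100 kb, each had 3 new peaks, all inside H3K27me3 in all 4 lists and without H3K27ac. Bcl2l11, which encodes the apoptosis activator Bim, had 5.31 per 100 kb. Its 3 new peaks, of which 2 were upstream, 1425 and 1901 bp from a start, and 1 was beyond the end of the gene, were inside control male H3K27me3 and without H3K27ac. H3K27me3 covered 100%, 93.4%, 62.1% and 0% of Bcl2l11 over the 4 groups. Chsy1, of chondroitin sulfate synthesis, had 3 intronic new peaks outside H3K27me3, and its H3K4me1 peaks numbered 4, 1, 9 and 5 and its H3K27ac peaks 0, 4, 5 and 5 over the 4 groups. Cdh1, which encodes E-cadherin of hepatocyte and bile duct junctions, had 3 intronic new peaks, all inside E1/E2-KO male H3K27me3, which covered 100% of the gene beside 44.8% in control male liver. Hcrtr2, an orexin receptor of the brain, had 3, all inside H3K27me3 in all 4 lists. 0610010O12Rik had 3 inside control male H3K27me3, and Nrp2, Tom1l2 and Igf2bp3 completed the 10.

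Gene lists of pathways and cell types were also read for new peaks, against 12.1% of all protein-coding genes with at least 1. Of 25 developmental transcription factors, 6 (24.0%) had a new peak: Pax6 with 2 and Gata4, Tbx3, Pax8, Runx3 and Meis1 with 1 each. All of these new peaks but that of Meis1 were inside H3K27me3 in all 4 lists, and those of Pax6 included 1 at a start, 57 bp from it. In the same list 7 genes had a lost peak, among them Pax6 with 2 and Gata4 with 1. The share of all genes with a lost peak is not given here, so this count has no comparison and shows nothing particular to the list. Of 17 Wnt and Hippo genes 4 (23.5%) had new peaks. The Wnt inhibitor Dkk3 and the Hippo pathway factor Tead1 had 2 each. The transcription factor Lef1 and the Wnt enhancer Rspo3 had 1 each. A lost peak was found at 2 genes of the list, again with no comparison over all genes. The peaks of Lef1, at its start, and of Rspo3 were inside H3K27me3 in all 4 lists. A Tead1 peak at chr7:119974548-119975380 was inside male H3K27me3 of both genotypes and overlapped H3K27ac in control female and both E1/E2-KO lists. The genes of both lists were longer than most, with median spans of 33126 and 38131 bp compared with 15535 bp, and the part of length was not tested.

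In the Tgf-beta list 1 of 18 genes (5.56%) had a new peak, the co-receptor Tgfbr3. This peak was outside H3K27me3 and had H3K27ac in control female and both E1/E2-KO lists. A lost peak was found at 6 genes of the list, whose median span was 62931 bp. The share of all genes with a lost peak is not given here, so this count has no comparison. H3K27me3 covered 63.9%, 38.6%, 2.32% and 3.85% of Tgfbr3 over the 4 groups. No new peak was found at the 7 cell cycle inhibitors, Cdkn1a and Cdkn2a among them. In the oncofetal list of 11 genes Igf2bp3 alone had new peaks. Of 15 polycomb genes 3 had 1 each: Cbx7, a subunit of polycomb repressive complex 1, at its start inside H3K27me3 in all 4 lists, Jarid2, an accessory factor of complex 2, outside H3K27me3, and Ezh1. Lost peaks were found at 5 genes of this list and at 4 female-biased, 2 male-biased and 4 interferon and antigen presentation genes. These counts too have no share of all genes beside them and show nothing particular to the lists.

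The Ezh1 peak, at chr11:101092536-101093229, was upstream of the gene, inside H3K27me3 in both controls and in neither E1/E2-KO list, and overlapped H3K27ac in control female and both E1/E2-KO lists. Within Ezh1 itself the pattern was opposite, with regions over 1.63%, 0%, 53.1% and 53.1% of the span over the 4 groups. No region lay over Ezh2 in any list, and it had no new peak. Peak lists hold no reads over the deleted exons, so the knockout itself was not checked here.

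Genes of sex-biased liver metabolism were read in the same way. Of 17 female-biased genes 2 (11.8%) had 1, Cyp3a16 and the receptor tyrosine kinase Ntrk2, and of 16 male-biased genes 1 (6.25%), the oxysterol hydroxylase Cyp7b1. H3K27me3 covered 64.7%, 61.1%, 0% and 0% of Cyp3a16 over the 4 groups, and H3K27ac peaks numbered 0, 0, 2 and 4. The Ntrk2 and Cyp7b1 peaks were intronic, inside no H3K27me3 region and without H3K27ac. Of 16 interferon and antigen presentation genes 3 (18.8%) had new peaks, among them the interferon regulatory factor Irf8 and the interferon-induced Ifit1 with 1 each. The Irf8 peak was inside H3K27me3 in all 4 lists and the Ifit1 peak in none, and neither overlapped H3K27ac.

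Among marker genes of the liver's cell types, none of the 12 hepatocyte genes had a new peak. The stellate cell and matrix list had 3 of 13 genes (23.1%): Col1a1, the fibrillar collagen chain, Pdgfrb, the receptor of stellate cells, and Tagln, an actin-binding protein of contractile cells, with 1 each. The Col1a1 and Pdgfrb peaks were inside H3K27me3 in all 4 lists and without H3K27ac, whereas the Tagln peak was inside no region and had H3K27ac in all 4 lists. Endothelial Vwf had 1 (1 of 12 genes, 8.33%), macrophage Csf1r 2 (1 of 11, 9.09%), B cell Cd79b 2 (1 of 11, 9.09%) and Cd24a, of bile duct and progenitor cells, 1 (1 of 10, 10.0%). All of these were inside control male H3K27me3. Over the genes of all 15 lists there were 37 new peaks. Of these, 27 were inside control male H3K27me3, beside 54.6% of all new peaks, 15 inside H3K27me3 in all 4 lists, beside 37.2%, 5 with H3K27ac in both E1/E2-KO lists, beside 10.2%, and 28 with H3K27ac in none, beside 71.2%. The last 3 of these counts are near the shares of all new peaks and show nothing particular to the listed genes.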

How the data were processed

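H3K4me1, H3K27ac and H3K27me3 were mapped by ChIP-seq in 47 liver samples. The authors aligned 50-nucleotide paired reads to mm9 with Bowtie2 (2.3.2), after the reads of a group's livers had been joined, and found peaks with MACS2 (2.1.1) for H3K4me1 and H3K27ac and SICER (1.1) for H3K27me3. The 12 deposited lists hold coordinates and a name for each peak, without a height, count or p-value, so that depth is unknown and neither replicate spread nor any test is possible. SICER joined nearby 400 bp windows into broad regions.

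Peaks of the autosomes were intersected in Python (3.11.15, NumPy 2.4.6, SciPy 1.17.1, matplotlib 3.10.9) at an overlap of 1 bp. Positions were taken from GENCODE M1 on NCBIM37, the same assembly as mm9. A peak was at a start when it reached within 1 kb of any annotated transcript start, and otherwise in an exon, an intron or between genes. Genes took every new peak within their span extended by 10 kb, so that a peak can count for several genes. Motifs and CpG were read in 500-base windows about peak centres. The overlap steps were tested on simulated lists, in which 300 of 300 planted peaks were recovered.

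Named genes were the 20 protein-coding genes with most new peaks (ties to the shorter), the 10 with 3 or more and most per 100 kb, and up to 4 members with most new peaks of each gene list. Sequences were printed for the first 10 of these genes in that order whose peaks lay in control male H3K27me3 or overlapped H3K27ac in both E1/E2-KO lists, taking the narrowest. The peaks and lists were chosen with earlier results of these data known. The alternatives tried are given in the closing section. Some genes that these rules name are not reported here.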

Additional observations from a re-analysis of the deposited data

How the results depend on the processing

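The number of new peaks was 2279 when the E1/E2-KO female list had to cover at least 50% of a peak, 2412 with no control peak within 1 kb, 2734 after peaks within 1 kb were merged, 3550 counted on the female list, and 1658 for the widest 50%. The share inside control male H3K27me3 was 53.7% at 50% cover and 55.6% on the female list, 60.7% with no control peak within 1 kb, 56.9% after merging and 65.2% for the widest 50%, and it stayed above 34.8%, the share of all E1/E2-KO male peaks, in each. The share with E1/E2-KO male H3K27ac was 16.1% with no control peak within 1 kb, 21.2% for the widest 50% and 31.4% when an H3K27ac peak within 1 kb was enough. Lost peaks at least 1 kb from any peak of the other genotype were at 19.8% and 34.7% for the same marks. The share at a start was 24.5% for the widest 50%, 29.8% within 3 kb, and 17.4% for starts of protein-coding genes. The number of genes with 3 or more new peaks moved most: it was 37 at 50% cover, 42 with no control peak within 1 kb, 38 after merging and 14 for the widest 50%. It was 86 counted on the female list, 104 by nearest start and 195 with spans extended by 50 kb. It was 62 without gene models over 2 Mb, an alternative added after seeing the data.

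No paired analysis was possible because each group is 1 pooled list, and leaving out a replicate was not possible for the same reason. The lists give presence without level, so that a weaker mark that stayed listed, or a peak just short of the caller's threshold in control liver, cannot be seen. Depth per pool is unknown, and the part of list length in each overlap was not tested.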
